A study of Mus musculus with 9 samples.

Results

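The genes described are Pparg and 9 enzymes that build triglycerides: Gpam, Agpat2, Agpat3, Lpin1, Lpin2, Lpin3, Mogat1, Dgat1 and Dgat2. They were found as the non-control probes whose RefSeq accession, without its version, belongs to one of these mouse genes, which gave 12 probes of 10 genes out of 55681 probes and 20972 named genes on the array. All 12 probes passed the filter on dim probes. Agpat2 and Lpin1 each had 2 probes, and the probe with the higher mean signal was counted for the gene. Pparg had 1 probe printed in 10 spots on every array, and the other members had 1 probe in 1 spot.

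Liver RNA of male mice aged 20 weeks was measured on 1-colour Agilent arrays, with 1 array per mouse and 3 mice in each of 3 groups. STAM mice are C57BL/6J mice made diabetic by streptozotocin, a toxin of insulin-secreting cells, given soon after birth, and then kept on a high-fat diet, and they pass from fatty liver to liver tumours. STAM-NON mice had streptozotocin and the high-fat diet with no further treatment. STAM-INS mice had the same and, in addition, injections of insulin glargine, a long-acting insulin, and Normal mice had neither streptozotocin nor the high-fat diet. A difference from Normal therefore holds the toxin, the diet and the disease together, and the groups hold no mice with only one of them. The study set out to learn how insulin treatment bears on the liver disease of this model.

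PPARgamma, the product of Pparg, is a nuclear receptor that binds DNA together with an RXR partner and switches on genes of fat uptake and storage. It is abundant in fat cells and usually low in healthy liver, and it is well known for being raised in fatty livers of mice. Triglyceride is assembled on a glycerol backbone: GPAT enzymes add the first fatty acid, AGPAT enzymes the next, lipins remove the phosphate to leave diacylglycerol, and DGAT enzymes add the last fatty acid. MOGAT enzymes reach diacylglycerol by another route, from monoacylglycerol.

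Signals are log2 intensities from which the 75th percentile of the same array was subtracted, so that 0 is the level of that percentile and 1 unit is a doubling. Levels of different genes are not compared, since probes differ in brightness. Between 46.2% and 65.0% of spots per array were well above background. The 6 STAM arrays shared 1 slide and the 3 Normal arrays another, so that slide and group cannot be told apart in any comparison with Normal. All STAM-NON arrays lay in row 1 of their slide, STAM-INS replicates 2 and 3 in row 2, and STAM-INS replicate 1 in row 1. The 8 hepatocyte markers, among them Alb, Apoa1 and Hnf4a, were well above background on all 9 arrays, as the label of liver says. Fewer cells of a type and less RNA per cell cannot be told apart in such whole-liver RNA.

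The sequences just before the starts of 4 members are shown because Gpam and Lpin2 passed the test, Mogat1 differed most between mice of a group and Pparg encodes the receptor itself. RefSeq windows were at hand for 8 of the 10 members, in 14 windows on the mouse assembly GRCm38.p6. Dgat1 and Dgat2 had none, although Dgat2 also passed the test. Each window was read for the 250 bases before the start, 5′ to 3′ on the gene's strand. Pparg has several starts, of which the first and the last of 3 are shown, and Gpam and Lpin2 are shown at 1 of their starts. For Gpam and Lpin2 this is the start whose window held a marked motif, and their other windows held none. Capitals mark the nuclear receptor half-site AGGTCA and the E-box CACGTG, each searched on both strands.
Pparg, first start, chr6:115360894-115361143, plus strand: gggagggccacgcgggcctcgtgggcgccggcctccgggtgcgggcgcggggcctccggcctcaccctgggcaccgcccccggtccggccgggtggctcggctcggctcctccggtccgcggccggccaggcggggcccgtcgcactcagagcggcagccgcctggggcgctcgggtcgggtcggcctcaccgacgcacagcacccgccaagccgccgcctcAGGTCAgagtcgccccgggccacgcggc
Pparg, last start, chr6:115421816-115422065, plus strand: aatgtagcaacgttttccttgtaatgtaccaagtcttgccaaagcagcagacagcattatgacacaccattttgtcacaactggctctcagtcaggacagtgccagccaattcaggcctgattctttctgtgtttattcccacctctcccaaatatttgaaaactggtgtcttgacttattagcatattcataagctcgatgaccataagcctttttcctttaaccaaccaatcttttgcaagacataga
Gpam, chr19:55099478-55099727, minus strand: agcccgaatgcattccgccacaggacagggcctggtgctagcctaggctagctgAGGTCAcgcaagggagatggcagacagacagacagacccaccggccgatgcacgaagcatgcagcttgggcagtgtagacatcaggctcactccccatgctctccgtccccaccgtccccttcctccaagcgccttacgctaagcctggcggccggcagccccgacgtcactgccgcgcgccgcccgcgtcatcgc
Lpin2, chr17:71183282-71183531, plus strand: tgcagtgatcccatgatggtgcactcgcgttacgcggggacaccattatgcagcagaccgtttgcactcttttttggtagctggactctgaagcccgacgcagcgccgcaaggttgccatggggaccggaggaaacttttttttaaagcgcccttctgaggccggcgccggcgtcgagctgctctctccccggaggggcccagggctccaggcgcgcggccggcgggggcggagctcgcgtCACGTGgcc
Mogat1, chr1:78510810-78511059, plus strand: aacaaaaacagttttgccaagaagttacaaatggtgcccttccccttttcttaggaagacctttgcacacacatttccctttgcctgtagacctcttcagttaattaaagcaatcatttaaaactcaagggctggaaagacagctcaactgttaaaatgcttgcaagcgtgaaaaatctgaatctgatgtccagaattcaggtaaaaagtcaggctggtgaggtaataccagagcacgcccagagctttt

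The half-site was in 4 of the 14 windows, those of 3 members (Pparg, Gpam and Lpin1), and in 14% of all 32851 windows of the same length. At the first start of Pparg it began 28 bases before the start, and at that of Gpam 196 bases before it. The full PPAR and RXR element, AGGTCANAGGTCA, which holds the half-site in both its parts, was in 0 of the 14 windows and in 11 of all 32851 (0.0335%). The E-box was in 1 of the 14, that of Lpin2, beginning 9 bases before the start, and in 6.02% of all windows. The window of Mogat1 and the last start of Pparg held none of these letters. GC content was 82.4% at the first start of Pparg, 40.8% at the last and 41.2% at Mogat1, against a median of 52.4% over all windows. These matches describe the letters in each window and do not say which factor binds there.

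Most members did not differ between the groups past an adjusted p of 0.05 (limma, Benjamini-Hochberg over 26278 tested probes). In STAM-NON against Normal, 1 of 10 members was called, Dgat2, which was lower, and 0 were higher. In the same comparison 16.1% of all tested probes were called, 6.3% higher and 9.76% lower. STAM-INS against Normal gave 3 calls of 10, with Gpam higher and Lpin2 and Dgat2 lower, where 13.9% of all tested probes were called, 5.16% higher and 8.72% lower. STAM-INS against STAM-NON gave 0 calls of 10, where 0.0913% of all tested probes were called. At an unadjusted p under 0.05 limma gave 2 of 10 members for insulin treatment, Lpin2 and Agpat2, where 8.78% of all tested probes passed, and the methods' t-test gave 1, Lpin2, where 5.7% of all tested probes passed. The plot of differences with their intervals shows how wide most of them were.

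**Figure D1:**
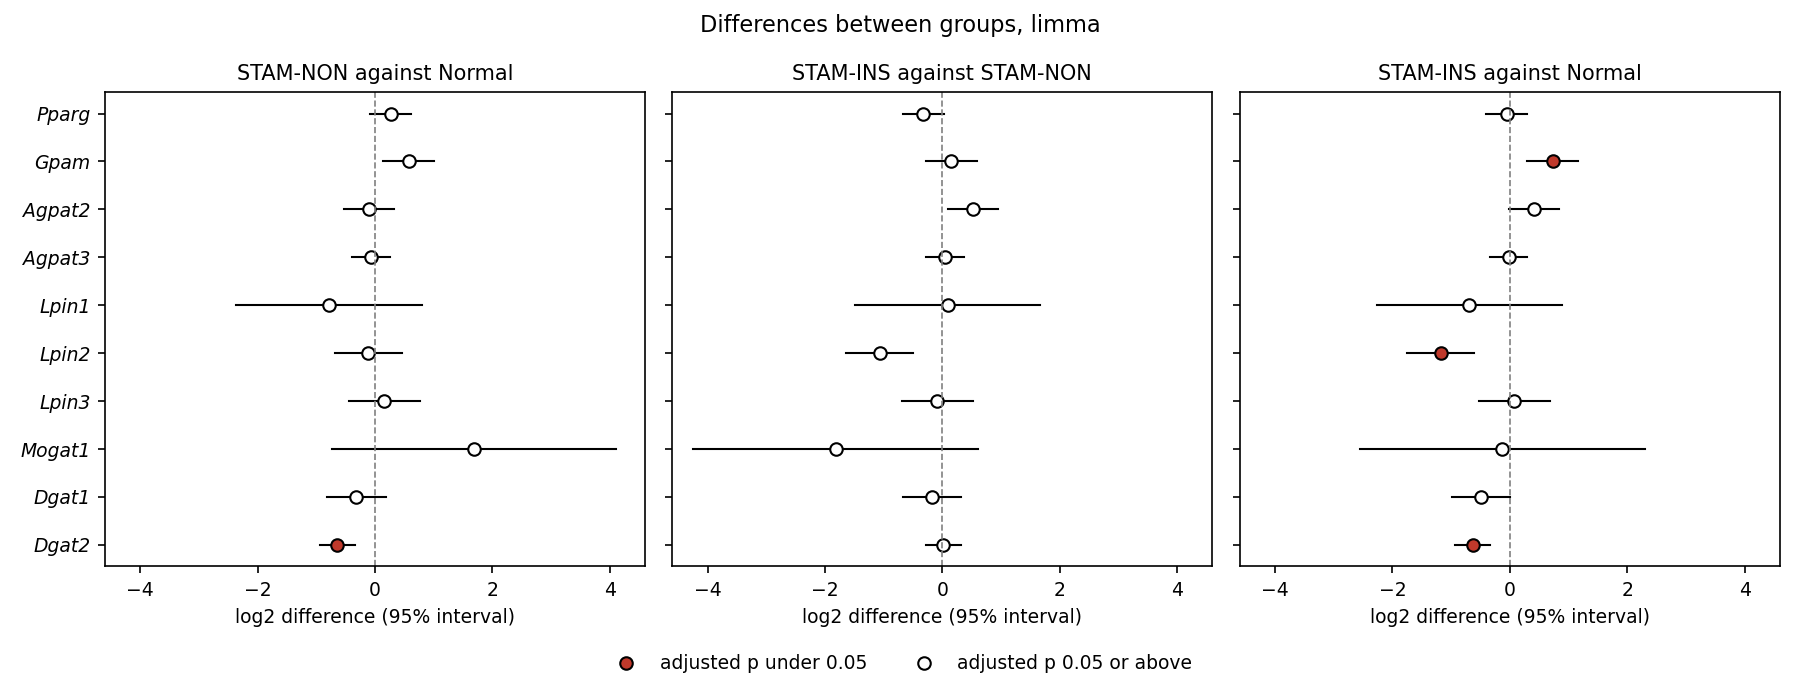
Differences of the 10 members (rows) in 3 comparisons (panels), as log2 difference of group means on the horizontal axis with the 95% interval of limma, 3 mice a group. Filled points passed an adjusted p of 0.05: Dgat2 at -0.64 in STAM-NON against Normal, and Gpam at 0.73, Lpin2 at -1.18 and Dgat2 at -0.63 in STAM-INS against Normal. The intervals of Mogat1 and Lpin1 are the widest.

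The median difference of the 10 members was -0.09 in STAM-NON against Normal, -0.04 in STAM-INS against STAM-NON and -0.09 in STAM-INS against Normal. Over all tested probes these medians were -0.13, 0.03 and -0.09, and other scalings moved the first between -0.29 and 0.17 and the last between -0.26 and 0.07, so that differences are to be read against them. The groups did not overlap for 2 of 10 members in STAM-NON against Normal (Gpam and Dgat2), where 41.2% of all tested probes did not overlap, and for 2 in STAM-INS against STAM-NON (Agpat2 and Lpin2), against 12.2%. In STAM-INS against Normal it was 5 of 10 (Gpam, Agpat2, Lpin2, Dgat1 and Dgat2), against 44% of all tested probes. Separation of this kind was therefore common on these arrays, and the counts alone say nothing particular of these genes.

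**Figure D2:**
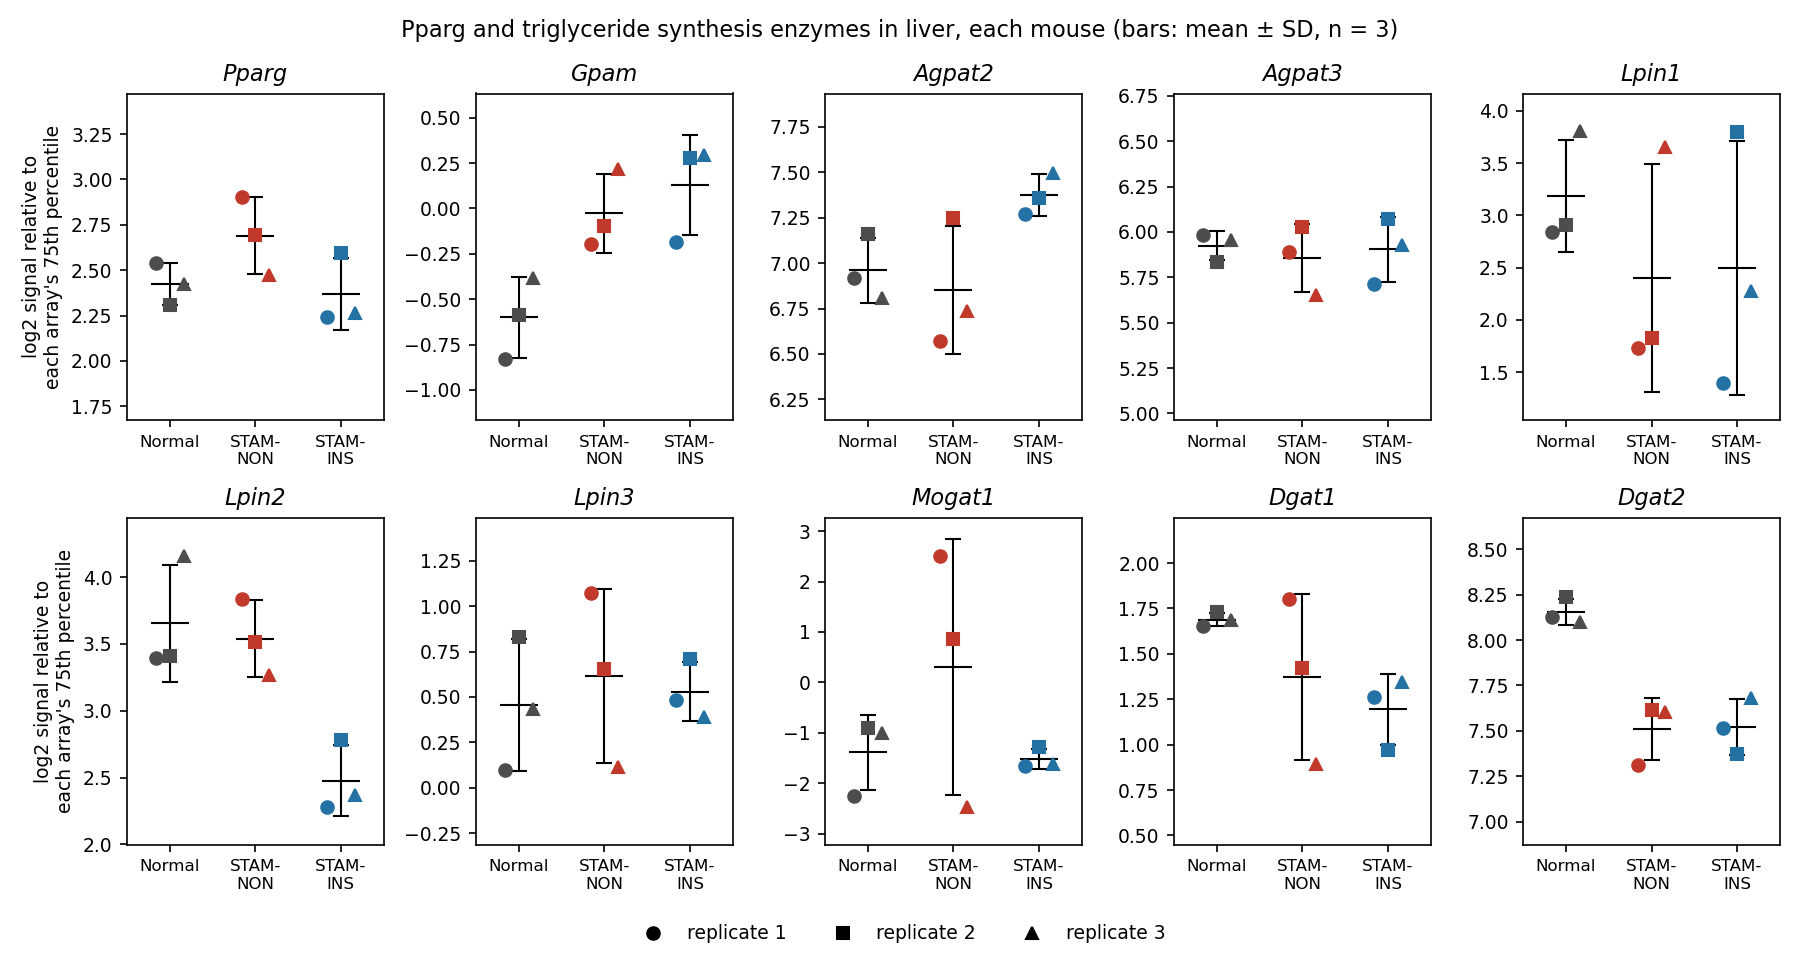
Signal of each member (panels) in every mouse, as log2 relative to the 75th percentile of its array, by group, with marker shapes for replicate numbers and bars for the mean ± SD of 3 mice. Vertical scales differ between panels. Dgat2 and Gpam separate Normal from both STAM groups, Lpin2 separates STAM-INS from the others, and Mogat1 spans 4.99 log2 units within STAM-NON.

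Pparg was at 2.90, 2.69 and 2.48 in the 3 STAM-NON mice, at 2.24, 2.60 and 2.26 in the STAM-INS mice and at 2.54, 2.31 and 2.42 in the Normal mice. All 3 groups overlapped, and the order of their means was STAM-NON above Normal above STAM-INS. The SD between the 10 spots of 1 array was 0.047 to 0.095, and the SD between the arrays of a group was 0.115 to 0.214. STAM-NON stood 0.27 above Normal, with a 95% interval of -0.08 to 0.62 and an adjusted p of 0.237. With insulin Pparg was 0.32 lower than in STAM-NON by its means (2.37 against 2.69), with an interval of the difference of -0.67 to 0.03 and an adjusted p of 0.587. STAM-INS and Normal differed by -0.05, with an interval of -0.40 to 0.30 and an adjusted p of 0.830. None of these 95% intervals reached further than 0.67 from 0. Other scalings moved the STAM-NON difference from Normal between 0.12 and 0.58, with its lowest adjusted p at 0.0938.

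Gpam encodes the mitochondrial GPAT, which adds the first fatty acid to glycerol 3-phosphate. Its signal was -0.83, -0.59 and -0.38 in Normal, -0.20, -0.10 and 0.22 in STAM-NON and -0.19, 0.28 and 0.30 in STAM-INS. Every STAM mouse, treated or not, lay above every Normal mouse, and the STAM groups overlapped each other. STAM-INS was above Normal by 0.73 ± 0.19 (SE), or 1.66-fold, with an adjusted p of 0.0386. STAM-NON was above Normal by 0.57 ± 0.19, with an adjusted p of 0.0691, and the STAM groups differed by 0.15, with an interval of -0.27 to 0.58 and an adjusted p of 0.849. The direction against Normal held under all 22 alternatives for both STAM groups. The call in STAM-INS was lost under 8 of these alternatives. Among them were leaving out STAM-INS replicate 2 (adjusted p = 0.124) or 3 (0.102), or Normal replicate 1 (0.114), 2 (0.0945) or 3 (0.0660). Centring on the median (0.113) was another. A call in STAM-NON was gained with 4 alternatives (lowest adjusted p = 0.0213).

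Agpat2 and Agpat3 encode enzymes that add the next fatty acid, to lysophosphatidic acid. Agpat2 was at 7.27, 7.36 and 7.50 in STAM-INS, at 6.57, 7.25 and 6.74 in STAM-NON and at 6.92, 7.16 and 6.81 in Normal. All 3 insulin-treated mice lay above all 6 others, with a closest gap of 0.02 to STAM-NON replicate 2. The difference from STAM-NON was 0.52 ± 0.19 (SE), with an adjusted p of 0.507, and from Normal 0.41 ± 0.19, with an adjusted p of 0.164, so that neither passed the test. The other Agpat2 probe gave 0.54 and 0.36 for the same differences, and the probes correlated at r = 0.97 over the 9 arrays. Agpat3 was at 5.65 to 6.03 in STAM-NON, 5.71 to 6.07 in STAM-INS and 5.84 to 5.98 in Normal. Its 3 differences lay between -0.07 and 0.05, with intervals that reached at most 0.39 from 0, and their signs changed between scalings.

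Lipins turn phosphatidic acid into diacylglycerol, and Lpin1 and Lpin2 are the main forms in liver. Lpin2 was at 2.28, 2.78 and 2.37 in STAM-INS, at 3.84, 3.52 and 3.27 in STAM-NON and at 3.39, 3.41 and 4.16 in Normal. Every insulin-treated mouse lay below every other mouse, and STAM-NON and Normal overlapped. STAM-INS was lower than Normal by -1.18 ± 0.25 (SE) on the log2 scale, a 2.26-fold difference, with an adjusted p of 0.0216. Against STAM-NON, which lay on the same slide, the difference was of like size at -1.06 ± 0.25, or 2.09-fold, with an interval of -1.64 to -0.49 and an unadjusted p of 0.00248, but its adjusted p was 0.332. Lpin2 kept this direction under all 22 alternatives in both comparisons, between -1.35 and -0.93 against Normal and between -1.26 and -0.91 against STAM-NON, where the adjusted p stayed between 0.167 and 0.911. The call against Normal was lost under 8 of these alternatives. Among them were leaving out STAM-INS replicate 1 (adjusted p = 0.0615) or 3 (0.0612), or Normal replicate 3 (0.0581), and centring on spike-ins (0.0582). STAM-NON and Normal differed by -0.11, with an interval of -0.69 to 0.46.

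Lpin1 varied far more between mice than between groups. Its brighter probe read 1.73, 1.82 and 3.66 in STAM-NON, 1.40, 3.80 and 2.28 in STAM-INS and 2.84, 2.91 and 3.81 in Normal. Each group thus held 1 mouse between 3.66 and 3.81 (STAM-NON replicate 3, STAM-INS replicate 2 and Normal replicate 3) and other mice at 2.91 or below. The other Lpin1 probe, which was much dimmer and well above background on 8 of 9 arrays, followed the same mice with r = 0.98 over the 9 arrays. The SD of the brighter probe was 1.09 in the STAM-NON mice, 1.22 in the STAM-INS mice and 0.539 in the Normal mice, at the 97.6, 99 and 93.1 percentiles of the SDs of all tested probes. Its differences of -0.78 (STAM-NON against Normal), 0.09 (STAM-INS against STAM-NON) and -0.69 (STAM-INS against Normal) had intervals as wide as -2.36 to 0.80, -1.49 to 1.67 and -2.27 to 0.89, so that a difference of a few fold was not detectable with 3 mice a group. Lpin3 lay between 0.12 and 1.07 in STAM-NON, 0.39 and 0.71 in STAM-INS and 0.10 and 0.83 in Normal. The groups of Lpin3 overlapped throughout, with differences of 0.16, -0.09 and 0.07 and no adjusted p under 0.687.

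Mogat1 encodes a monoacylglycerol acyltransferase that is known as a gene switched on by PPARgamma in fatty liver. In STAM-NON the 3 mice read 2.51, 0.85 and -2.47, a range of 4.99. STAM-INS mice read -1.65, -1.29 and -1.61, and Normal mice read -2.25, -0.90 and -1.01. STAM-NON replicates 1 and 2 therefore lay above all 6 mice of the other groups, while STAM-NON replicate 3 lay below all of them. Within STAM-NON the SD was 2.54, at the 99.9 percentile of all tested probes, against 0.198 with insulin and 0.749 in Normal mice. Over all tested probes the median SD was 0.232, 0.178 and 0.156 in these groups. The mean of STAM-NON was above Normal by 1.69 ± 1.06 (SE), with an adjusted p of 0.280, and above STAM-INS to a like degree (STAM-INS minus STAM-NON -1.82 ± 1.06, adjusted p of 0.653). Without STAM-NON replicate 3 the difference from Normal was 3.07, with an adjusted p of 0.0300, and without STAM-NON replicate 1 it was 0.58, with an adjusted p of 0.688. The difference of STAM-INS from STAM-NON was -3.20 (adjusted p = 0.0952) and -0.71 (not called) without the same mice. STAM-INS and Normal differed by -0.13, with an interval of -2.55 to 2.30.

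DGAT enzymes add the last fatty acid, and Dgat1 and Dgat2 encode unrelated proteins of the same activity. Dgat2 was at 8.13, 8.24 and 8.10 in Normal, at 7.31, 7.61 and 7.61 in STAM-NON and at 7.51, 7.37 and 7.68 in STAM-INS. All 6 STAM mice lay below all 3 Normal mice, and the STAM groups overlapped. STAM-NON was lower than Normal by -0.64 ± 0.13 (SE) on the log2 scale, a 1.56-fold difference, with an adjusted p of 0.0198, and STAM-INS by -0.63 ± 0.13, a 1.55-fold difference, with an adjusted p of 0.0201. The STAM groups differed by 0.01, with an interval of -0.29 to 0.31. Dgat2 was lower than Normal under all 22 alternatives in both groups, at -0.80 to -0.34 in STAM-NON and -0.80 to -0.40 in STAM-INS, but the size depended on the scaling, at -0.34 in STAM-NON with spike-ins (adjusted p = 0.133) and -0.36 with quantile normalization (adjusted p = 0.0902). In all, the call was lost under 9 alternatives in STAM-NON and 10 in STAM-INS. Among them was leaving out STAM-NON replicate 1 (adjusted p = 0.0548), STAM-INS replicate 1 (0.0527) or 2 (0.0751) in the group concerned. Leaving out any 1 Normal mouse did the same (0.0581, 0.0668 and 0.0599 for STAM-NON, and 0.0583, 0.0659 and 0.0613 for STAM-INS, replicates 1 to 3).

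Dgat1 read 1.65, 1.73 and 1.68 in Normal, 1.27, 0.97 and 1.34 in STAM-INS and 1.80, 1.42 and 0.89 in STAM-NON. The Normal mice lay close together, with an SD of 0.037, and every STAM-INS mouse lay below them. The difference of STAM-INS from Normal was -0.50 ± 0.22 (SE), with an adjusted p of 0.155. In STAM-NON the mice straddled Normal, with a difference of -0.32, an interval of -0.81 to 0.18 and an adjusted p of 0.321. Within STAM-NON, Dgat1, Pparg, Lpin2, Lpin3 and Mogat1 had the same order of mice, with replicate 1 highest and replicate 3 lowest. Gpam and Lpin1 had the reverse order, and Agpat2, Agpat3 and Dgat2 were highest in replicate 2. Few orders are possible with 3 mice, so that these are only a description.

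Over the 9 arrays, Mogat1 correlated with Lpin3 at r = 0.83, with Pparg at 0.74 and with Dgat1 at 0.51, and with Dgat2 at -0.39. Gpam correlated with Dgat1 at -0.76 and with Dgat2 at -0.72, and Lpin2 with Agpat2 at -0.75. The 9 arrays hold 3 groups, so that these values mix differences between groups with those between mice, and arrays share their slide within a group.

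Among 13376 other tested genes, the 5 most correlated with Mogat1 over the 9 arrays were Atp9a (r = 0.970), Gpat3 (0.969), Sesn2 (0.967), Sbsn (0.965) and Vnn1 (0.950). Gpat3, a GPAT of the endoplasmic reticulum, read 3.42, 2.87 and 1.61 in STAM-NON, 1.84, 1.90 and 1.65 in STAM-INS and 1.95, 2.17 and 2.22 in Normal. It had the order of Mogat1 in STAM-NON, with replicate 3 below every Normal mouse. Vnn1, a pantetheinase, read 4.40, 4.19 and 2.41 in STAM-NON and 2.94 to 3.30 in the other groups, again with replicate 3 below all others. The genes most like Pparg were Zfyve16 (r = 0.910), Prrg4 (0.899), Arhgef7 (0.880), Cd151 (0.873) and Pcgf2 (0.865). These correlations were the highest of 13376 and are given as a description.

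**Figure D3:**
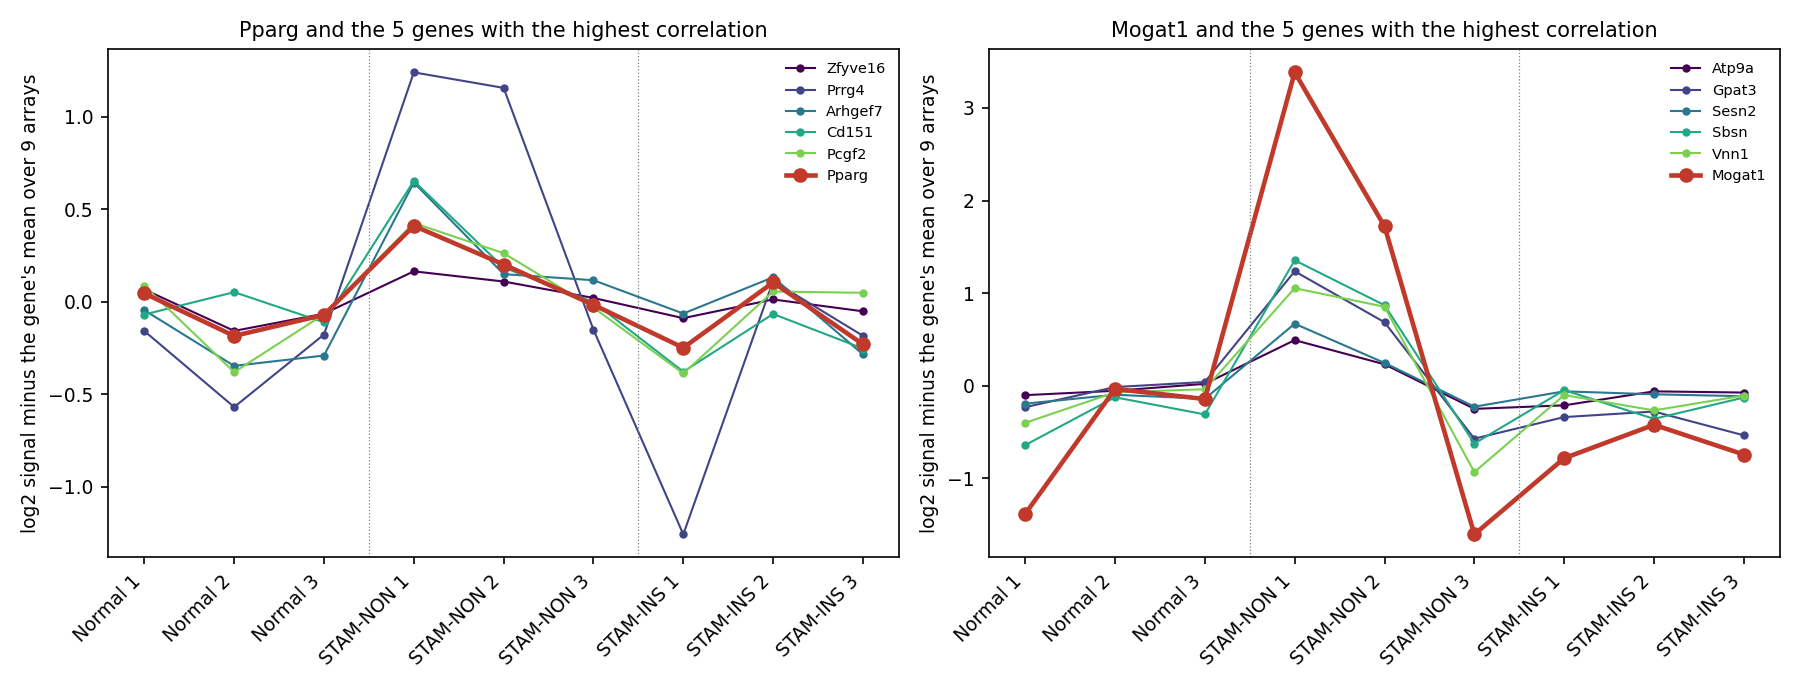
Log2 signal of Pparg (left) and Mogat1 (right), as thick lines, and of the 5 genes most correlated with each, as thin lines, on the 9 arrays, each minus its own mean over the arrays. The peak of Mogat1 lies in STAM-NON replicates 1 and 2 and its lowest point in STAM-NON replicate 3, and the swings of Pparg are smaller, between 2.24 and 2.90 before its mean was removed.

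Around the members, 6 lists of related genes held 80 genes, of which 70 were tested. In STAM-NON against Normal 11 of the 70 passed the test, 7 higher and 4 lower (15.7%, against the 16.1% of all tested probes), and in STAM-INS against Normal 12 of 70, 6 higher and 6 lower (17.1%, against 13.9%). In STAM-INS against STAM-NON it was 0 of 70 by limma and by the methods' t-test, with 18 and 8 at an unadjusted p under 0.05 (8.78% and 5.7% of all tested probes). The median difference of the 70 genes was -0.15, -0.09 and -0.08 in these comparisons, in this order.

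**Figure D4:**
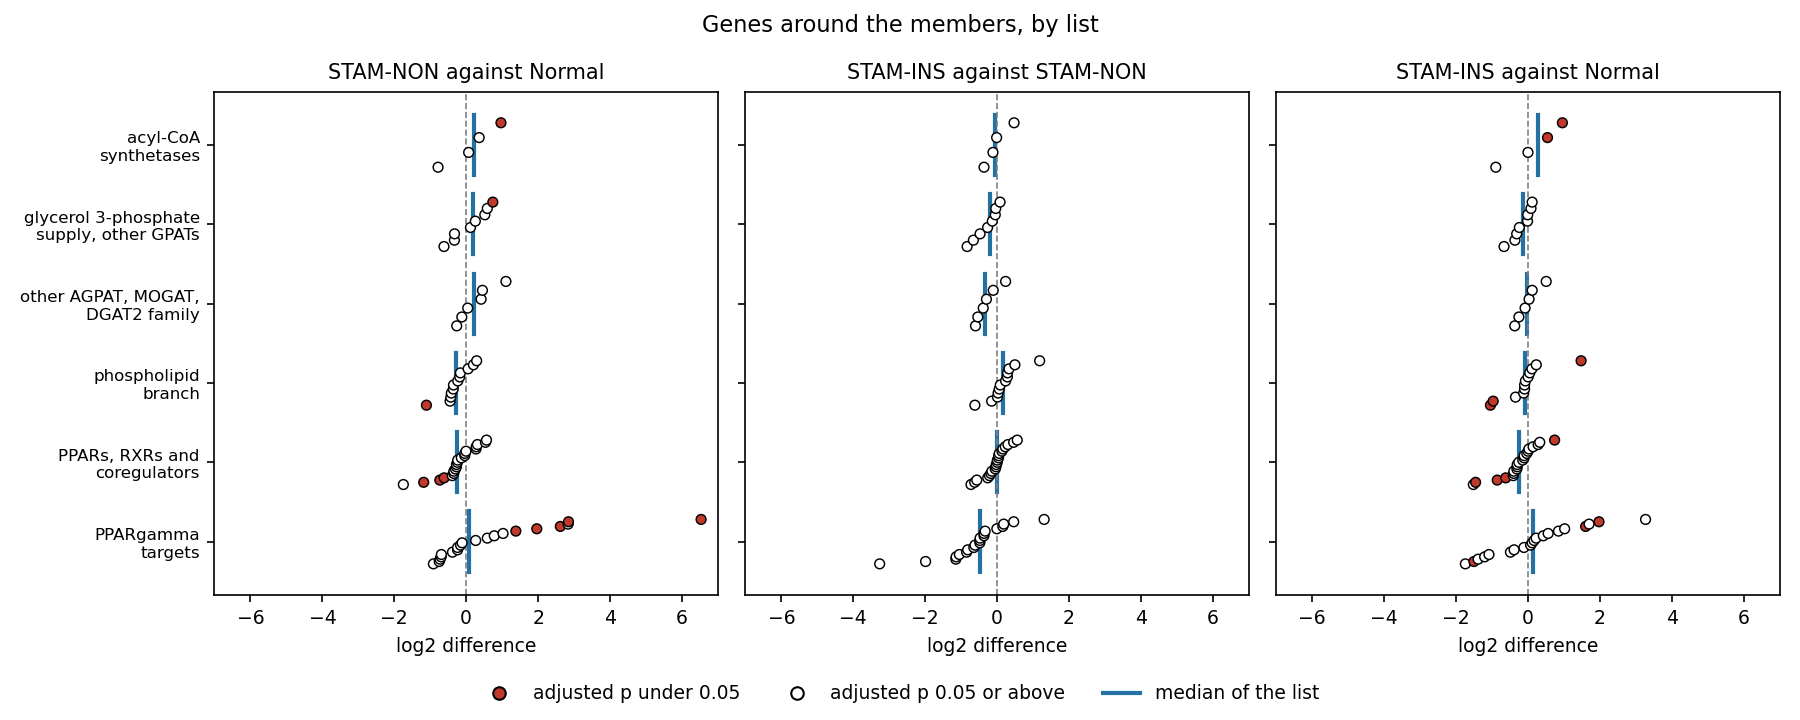
Log2 differences of the tested genes of 6 lists (rows) in 3 comparisons (panels), with filled points for an adjusted p under 0.05 and a bar at the median of each list. The point farthest from 0 in STAM-NON against Normal is Cidea, a PPARgamma target, at 6.53, which was well above background on 1 of 3 Normal arrays, and no point is filled in STAM-INS against STAM-NON.

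Known targets of PPARgamma held 5 of the 7 rises in STAM-NON. Of 20 tested targets 5 were called higher (25%) and 0 lower than in Normal, against 6.3% and 9.76% of all tested probes. By sign alone, 10 of the 20 lay above Normal and 10 below it. Their median difference was 0.08, where that of all tested probes was -0.13. One of the 5 called, Cidea, passed the filter on dim probes through the STAM groups, in which it was bright, so that its call adds nothing. The others called were Fabp4, Ucp2, Lpl and Cd36. The list was chosen with earlier results of these data known, so that its share of calls is only a description. Pparg itself was not called. Cidea, a lipid droplet protein, read 5.86, 1.71 and 1.80 in STAM-NON, -0.07, -0.84 and 0.47 in STAM-INS and -4.08, -3.59 and -2.57 in Normal, where it was well above background on 1 of 3 arrays. Fabp4, a fatty acid carrier of fat cells and macrophages, read 4.58, 2.97 and 5.48 in STAM-NON and 1.43 to 1.55 in Normal, with a difference of 2.85 ± 0.72 (SE) and an adjusted p of 0.0344. Ucp2, a mitochondrial carrier, was higher by 2.62 ± 0.44, with an adjusted p of 0.0129. Lpl, which releases fatty acids from lipoproteins, and Cd36, which takes them up, were higher by 1.96 and 1.38. Within STAM-NON, Ucp2 (2.99, 1.86 and 1.38) and Cd36 (3.65, 3.14 and 2.57) had the order of Mogat1, with replicate 1 highest and replicate 3 lowest. Cidea, Lpl and Fabp4 had other orders, and Fabp4 was highest in replicate 3, where Mogat1 was lowest.

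With insulin, 3 of 20 of these targets (15%, against 13.9% of all tested probes) passed the test against Normal, with Ucp2 (1.97) and Lpl (1.60) higher and Angptl4, a secreted inhibitor of Lpl, lower (-1.51 ± 0.31 SE, adjusted p of 0.0190). Against STAM-NON, 16 of 20 targets had a negative difference and 0 passed the test, with a median of -0.48 where the median of all tested probes was 0.03. The largest such difference was that of Cidea, from a mean of 3.12 in STAM-NON to -0.15 with insulin.

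A further list held PPAR receptors, RXR partners, coregulators and other DNA-binding factors, among them Cebpa, Srebf1 and Mlxipl. Of its 21 tested genes 3 were lower in STAM-NON than in Normal and 0 were higher. This was a share of 14.3%, where 16.1% of all tested probes were called and 9.76% were lower. Mlxipl, which encodes the glucose-sensing factor ChREBP, was lower by -1.18 ± 0.17 (SE, adjusted p of 0.00831), Ppargc1b, a coactivator, by -0.73 and Rxra, the main RXR of liver, by -0.61. The second probes of Mlxipl and Rxra gave -0.30 and 0.01 and were not called (adjusted p = 0.106 and 0.971), so that probes of these genes disagreed. In STAM-INS 4 of the 21 were called (19%, against 13.9% of all tested probes). Ppargc1b was lower than Normal by -1.46, Ppara, the PPAR that drives fatty acid oxidation in liver, by -0.86 and Mlxipl by -0.62, and Ppard was higher by 0.74. All 3 Ppara probes were called in that comparison, at -0.86, -0.89 and -0.83. The second Mlxipl probe was not called there, at -0.25 (adjusted p of 0.172 by limma). Of the 3 PPAR genes, Ppara and Ppard thus differed from Normal in STAM-INS, in opposite directions, and Pparg was not called. Against STAM-NON, neither was called in STAM-INS, with Ppara at -0.62 (limma adjusted p of 0.473) and Ppard at 0.46 (0.559).

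Of 4 tested acyl-CoA synthetases 1 was called in STAM-NON against Normal and 2 in STAM-INS against Normal, and of 12 tested genes of the phospholipid branch 1 and 3, where 16.1% and 13.9% of all tested probes were called. Acsl3, which activates fatty acids with coenzyme A, was higher than Normal by 0.97 ± 0.16 (SE) in STAM-NON and 0.95 ± 0.16 in STAM-INS, with adjusted p of 0.0125 and 0.0102. Acsl5 was higher by 0.54 in STAM-INS (adjusted p of 0.0374). Of 8 tested genes of glycerol 3-phosphate supply and other GPATs, Gpat2 alone was called, higher in STAM-NON by 0.74 (adjusted p of 0.0425). None of 6 tested AGPAT, MOGAT and DGAT2 family genes outside the members was called in any comparison by limma, with 2, 2 and 1 at an unadjusted p under 0.05 in STAM-NON against Normal, STAM-INS against STAM-NON and STAM-INS against Normal (35.8%, 8.78% and 32.5% of all tested probes). In the phospholipid branch, which draws on the same diacylglycerol, Chpt1, a choline phosphotransferase, was lower than Normal by -1.11 in STAM-NON and -1.05 in STAM-INS. Chka, a choline kinase, was higher by 1.48 ± 0.24 (SE, adjusted p of 0.00854) and Etnk2, an ethanolamine kinase, lower by -0.97 in STAM-INS.

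Markers of other cells that express Pparg or its targets also moved between the groups, and their part in these results was not tested. Of 10 tested macrophage markers 5 were higher in STAM-NON than in Normal (Clec4f, Cd5l, Itgax, Trem2 and Gpnmb) and 3 in STAM-INS (Clec4f, Cd5l and Trem2), where 6.3% and 5.16% of all tested probes were higher. Gpnmb was well above background on 0 Normal arrays and passed the filter through STAM-NON, in which it was at least 4.32-fold higher, so that its call adds nothing to the count. Their summed signal on the log2 scale was 6.60 to 7.20 in Normal, 7.63 to 8.44 in STAM-NON and 7.36 to 8.62 in STAM-INS. Of fat cell markers Lep was well above background on 0 of 9 arrays, Plin1 on 1 STAM-NON array, and Adipoq and Retn each on 2 STAM-NON arrays, 1 STAM-INS array and 0 Normal arrays. The summed signal of the 4 tested markers (Cfd, Fabp4, Lipe and Car3) was 7.63 to 8.63 in Normal, 6.16 to 6.87 in STAM-NON and 5.59 to 7.35 in STAM-INS. In Normal this sum was nearly all Car3, which alone read 7.61 to 8.61 there. Car3 had a mean of 8.23 in Normal and 5.93 in STAM-NON, so that the sum mostly describes this 1 gene. The mean of the log2 signals of the 4 markers had another order, at 1.13 to 1.90 in Normal, 1.56 to 2.85 in STAM-NON and 0.80 to 1.80 in STAM-INS. Fabp4 was called higher in STAM-NON than in Normal, and Cfd was at a difference of 1.43 (adjusted p of 0.397). Stellate cell and fibroblast markers summed to 6.44 to 7.15 in STAM-NON, 6.07 to 6.42 in STAM-INS and 6.17 to 6.35 in Normal. By limma 0 of 8 were called in STAM-NON against Normal, STAM-INS against STAM-NON or STAM-INS against Normal. Of all tested probes 16.1%, 0.0913% and 13.9% were called there. At an unadjusted p under 0.05 limma gave 5, 2 and 0 of 8 in the same order, against 35.8%, 8.78% and 32.5% of all tested probes. The 8 hepatocyte markers summed to 11.63 to 12.04 in STAM-NON, 11.89 to 12.05 in STAM-INS and 12.16 to 12.23 in Normal. Of gut markers, Fabp2 and Apoa4 were well above background on 9 of 9 arrays, Vil1 on 5, Cdx2 on 1 and Alpi on 0, and Apoa4, which fatty liver also makes, was higher than Normal by 3.38 in STAM-NON and 2.89 in STAM-INS. Of pancreas markers, Ins2 was well above background on 9 of 9 arrays, Cela2a on 3, Prss2 on 2 and Ins1, Gcg and Cpb1 on 0.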

How the data were processed

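Liver total RNA of 9 mice in 3 groups of 3 was labelled with Cy3 and hybridised to Agilent mouse arrays. Each file, as deposited by the authors, gives spot intensity from Agilent Feature Extraction 11.5.1.1 (named in the submitters' processing notes), background-subtracted on a linear scale and not normalised between arrays. The study's methods name no normalisation for arrays. For pairs of groups in general they name an unpaired t-test or a Mann-Whitney test, and they also name one-way ANOVA with multiple comparisons. Of these, the t-test was run as an alternative. Here, log2 processed signal was centred on the 75th percentile of all 59305 non-control spots of each array, outlier-flagged spots were dropped and the spots of a probe averaged. Probes were tested where at least 0.5 of their spots were well above background on all 3 arrays of a group (26278 of 55681). One model of the 9 arrays was fitted with limma 3.58.1 in R 4.3.3, with Benjamini-Hochberg adjustment over all tested probes and a threshold of 0.05. Accessions were matched to a RefSeq table of GRCm38.p6, which named 27656 probes. The array design was built on mm9, and no array coordinates are given.

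Groups and replicate numbers came from the labels. The members and gene lists were chosen with earlier results of these data known. By the rule for named genes, the text names all members, list genes past the threshold (up to 3 higher and 3 lower per list and comparison by size, with Lpl and Cd36 named beyond it) and the 5 genes most correlated with Pparg and with Mogat1; Gpat3 and Vnn1 were picked from these for their values after they were seen. For a gene with several probes the brighter one was counted. The normexp alternative used the median intensity of spot and background with an offset of 50. The fit was tested on simulated data. Other alternatives were other centrings, filters and moderations, the methods' t-test, blocks for replicate number and slide row, and leaving out each mouse. The labels and the study's methods name different RNA extraction kits. The number of arrays limits the precision.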

Additional observations from a re-analysis of the deposited data

How the results depend on the processing

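Of the 4 calls among the members, each kept its direction under all 22 alternatives and lost its adjusted p under 8 to 10 of them. The members called in STAM-NON against Normal numbered 2 with the percentile over probes detected on all arrays, 0 with quantile normalization, 2 with normexp, and 0 with no filter on dim probes, the methods' t-test or the slide row as a block. In STAM-INS against Normal they numbered 1 with spike-in centring, the methods' t-test or the slide row as a block, and 0 with no filter. Called pathway genes numbered 0 in STAM-NON against Normal with no filter, the methods' t-test or the slide row, and in STAM-INS against Normal 2 with no filter, 7 with the methods' t-test and 21 with only the compared groups fitted. At the methods' unadjusted threshold the t-test gave 2 of 10 members in STAM-NON against Normal and 1 in STAM-INS against STAM-NON. It gave 5 of 10 in STAM-INS against Normal. Of all 26278 tested probes, 7534, 1498 and 8811 passed the same threshold in these comparisons, in this order. STAM-NON and Normal share no slide row, so that this block rests on STAM-INS replicate 1 alone and equals leaving it out in STAM-INS against Normal. Leaving out 1 mouse gave 0 to 2 members and 5 to 18 pathway genes in STAM-NON against Normal, 0 to 1 pathway genes in STAM-INS against STAM-NON, and 0 to 3 members and 3 to 21 pathway genes in STAM-INS against Normal. In STAM-NON against Normal 0 members were called without STAM-NON replicate 1 or any Normal mouse (5, or 6 without Normal replicate 3, pathway genes), 2 without STAM-NON replicate 3, and 18 pathway genes without STAM-NON replicate 2. In STAM-INS against Normal 1 member was called without any STAM-INS mouse or Normal replicate 1 or 2 and 0 without Normal replicate 3, with 3 pathway genes without Normal replicate 2 or 3, 4 without Normal replicate 1 or STAM-INS replicate 2, 8 without STAM-INS replicate 1 or 3, and 21 without STAM-NON replicate 3. Over all tested probes, those higher and lower in STAM-NON than in Normal numbered 1655 and 2565, but 2093 and 1061 with the percentile over detected probes, 2685 and 457 with spike-ins, 1537 and 1425 with quantile normalization, 1313 and 3387 with normexp, 8 and 22 by the methods' t-test and 9 and 6 with the slide row. In STAM-INS against Normal they numbered 1355 and 2292, but 1677 and 1300, 1477 and 706, 1328 and 1758, 1095 and 2647, 716 and 2112, and 801 and 1356 in the same order. The settings with the most called pathway genes also called more of all tested probes. In STAM-INS against Normal these were 1898 and 3296 with only the compared groups fitted and 1535 and 2825 without STAM-NON replicate 3. In STAM-NON against Normal they were 2263 and 3922 without STAM-NON replicate 2.

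Same-numbered mice did not deviate together (correlations of -0.29 to 0.15 over 9 pairs, -0.19 to 0.28 over 18 pairs of different number), so that the numbers do not pair the mice. The replicate block gave 2 members and 5 pathway genes in STAM-NON against Normal, and 1 and 6 in STAM-INS against Normal.

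Signs that turned were those of uncalled differences. In STAM-NON against Normal, Agpat2, Agpat3 and Lpin2 were at 0.058, 0.096 and 0.051 with the percentile over detected probes, 0.20, 0.24 and 0.19 with spike-ins, 0.17, 0.20 and 0.088 with quantile normalization and 0.051, 0.22 and 0.18 with the slide row, where Lpin1 was at 0.86. In STAM-INS against STAM-NON, Dgat2 was at -0.030, -0.13, -0.006, -0.036 and -0.0062 with the percentile over detected probes, spike-ins, the median, quantile normalization and normexp. There, Agpat3 was at -0.099 with spike-ins, -0.011 with quantile normalization and -0.14 with the slide row, Lpin1 at -0.057 with spike-ins and -1.0 with the slide row, and Gpam at -0.16 with the slide row. In STAM-INS against Normal, Pparg and Agpat3 were at 0.068 and 0.10 with the percentile over detected probes, 0.11 and 0.14 with spike-ins, 0.043 and 0.19 with quantile normalization and 0.0075 and 0.073 with the slide row, Mogat1 at 0.034 with spike-ins and Lpin3 at -0.097 with median centring. Leaving out 1 mouse, the ranges in STAM-NON against Normal were -0.31 to 0.034 for Agpat2, -0.15 to 0.031 for Agpat3, -0.26 to 0.14 for Lpin2 and -0.069 to 0.41 for Lpin3. In STAM-INS against STAM-NON they were -0.56 to 0.72 for Lpin1, -0.33 to 0.14 for Lpin3, -0.42 to 0.036 for Dgat1, -0.087 to 0.088 for Dgat2 and -0.053 to 0.14 for Agpat3. In STAM-INS against Normal they were -0.17 to 0.0075 for Pparg, -0.11 to 0.073 for Agpat3, -0.10 to 0.26 for Lpin3 and -0.56 to 0.11 for Mogat1. The cause of these changes was not tested. Slide as a block was not run, since 1 slide holds all STAM arrays and the other all Normal arrays.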
